A study of Homo sapiens with 12 samples.

Results

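Rab GTPases are small membrane-bound switches that direct vesicle traffic. Each Rab marks a particular compartment, is loaded with GTP by an exchange factor (GEF), recruits effectors such as tethers and motors while GTP is bound, and is returned to its GDP form by a GTPase-activating protein (GAP). Epithelial cells use them to sort proteins to the apical and basolateral membranes, to recycle junction proteins and integrins, and to release secretory vesicles. A549 is a human lung carcinoma line in which TGFβ is used to induce epithelial-mesenchymal transition (EMT), and the levels of the Rab genes were followed through this treatment by single-cell RNA-seq.

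The genes were selected by symbol and abundance. Of 70 protein-coding genes whose symbol is RAB followed by a number and optional letters, 45 had at least 100 UMIs over the kept cells, out of 15871 protein-coding genes in all. Of the 45, 39 encode Rab GTPases. The other 6 carry a Rab's name but encode a partner of a Rab and not a GTPase: RAB3GAP1 and RAB3GAP2, RAB3IP, and the RAB11-family interacting proteins RAB11FIP1, RAB11FIP2 and RAB11FIP5. The least abundant genes that met the minimum were RAB36 with 126 UMIs and RAB26 with 144. Just under it were RAB1B with 96, RAB11FIP4 with 95 and RAB20 with 90. RAB1A, the paralog of RAB1B, had 16953, and whether the counting lost RAB1B reads was not tested. All 45 entered the test. Of the 25 genes below the minimum, 4 were tested and 0 were called in any of the 7 comparisons.

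Cells received TGFβ at 4 ng/mL. They were taken at 0 h and at 5 later times from 0.5 h to 96 h, with 12, 24 and 48 h between. Each time has 2 libraries of 384 wells, and each well received 1 sorted cell negative for propidium iodide. All groups are the same line and carry the same treatment label, so the 0 h libraries are the reference. No time-matched culture without TGFβ was analysed, and time in culture and TGFβ exposure cannot be told apart. Nothing in the labels says that the replicates came from separate cultures, so p-values measure the spread between libraries. Of 4608 wells, 1871 were kept, 54 to 217 per library, and the 96 h libraries held the fewest. Protein-coding UMIs summed to 1264044 to 4500036 per library. The epithelial keratins KRT8 and KRT18 were present in every library. The alveolar type II markers SFTPB, SFTPC, NAPSA, SFTPA2 and LAMP3 stood at 0.664 CPM or less, PTPRC was at 0, and PECAM1 and CDH5 reached at most 0.273 CPM. SFTPA1, CD3E, CD68, LYZ and VWF, also looked for, had no protein-coding entry in the counts. The summed level of 5 epithelial genes was 2645 CPM at 0 h and 1073 CPM at 96 h, and that of 4 mesenchymal genes was 1405 and 4435 CPM. KRT8 and KRT18 made up most of the epithelial sum. VIM, at 1195 and 3804 CPM, made up most of the mesenchymal sum. Levels are given in CPM, the usual counts per fixed total of protein-coding UMIs of a library, scaled by TMM. A UMI counts the 3' end of 1 transcript, so CPM needs no division by gene length to compare genes.

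Together the 39 Rab GTPases held a nearly constant part of the transcriptome, 0.303% to 0.337% of protein-coding UMIs in the 12 libraries. The composition of that part changed. At 0 h the most abundant Rab was RAB10, which carries exocytic and basolateral cargo, followed by RAB1A of the ER-to-Golgi route, RAB11A of recycling endosomes, RAB2A of the Golgi and RAB7A of late endosomes. RAB10 made up 21.0% of Rab GTPase UMIs at 0 h and 9.55% at 96 h, and RAB1A took first place from 12 h on. RAB3B, a regulator of secretory vesicle release, ranked 29 of 39 at 0 h with 0.487% of Rab GTPase UMIs and ranked 4 at 96 h with 8.68%. Rabs of secretory vesicles and the plasma membrane held 27.2% ± 1.022 of Rab GTPase UMIs at 0 h, 17.8% ± 0.628 after 12 h and 24.7% ± 1.496 after 96 h (SD, n = 2). The ER and Golgi Rabs held 27.9% ± 1.45, 32.3% ± 1.077 and 27.6% ± 1.45 at the same times. Of the secretory Rabs, RAB3B alone held 0.966% and 1.13% in the 12 h libraries and 7.72% and 9.63% at 96 h. The higher share of that group at 96 h than at 12 h rests on this gene. As sums over cells, these levels do not separate fewer expressing cells from less RNA per cell.

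**Figure D1:**
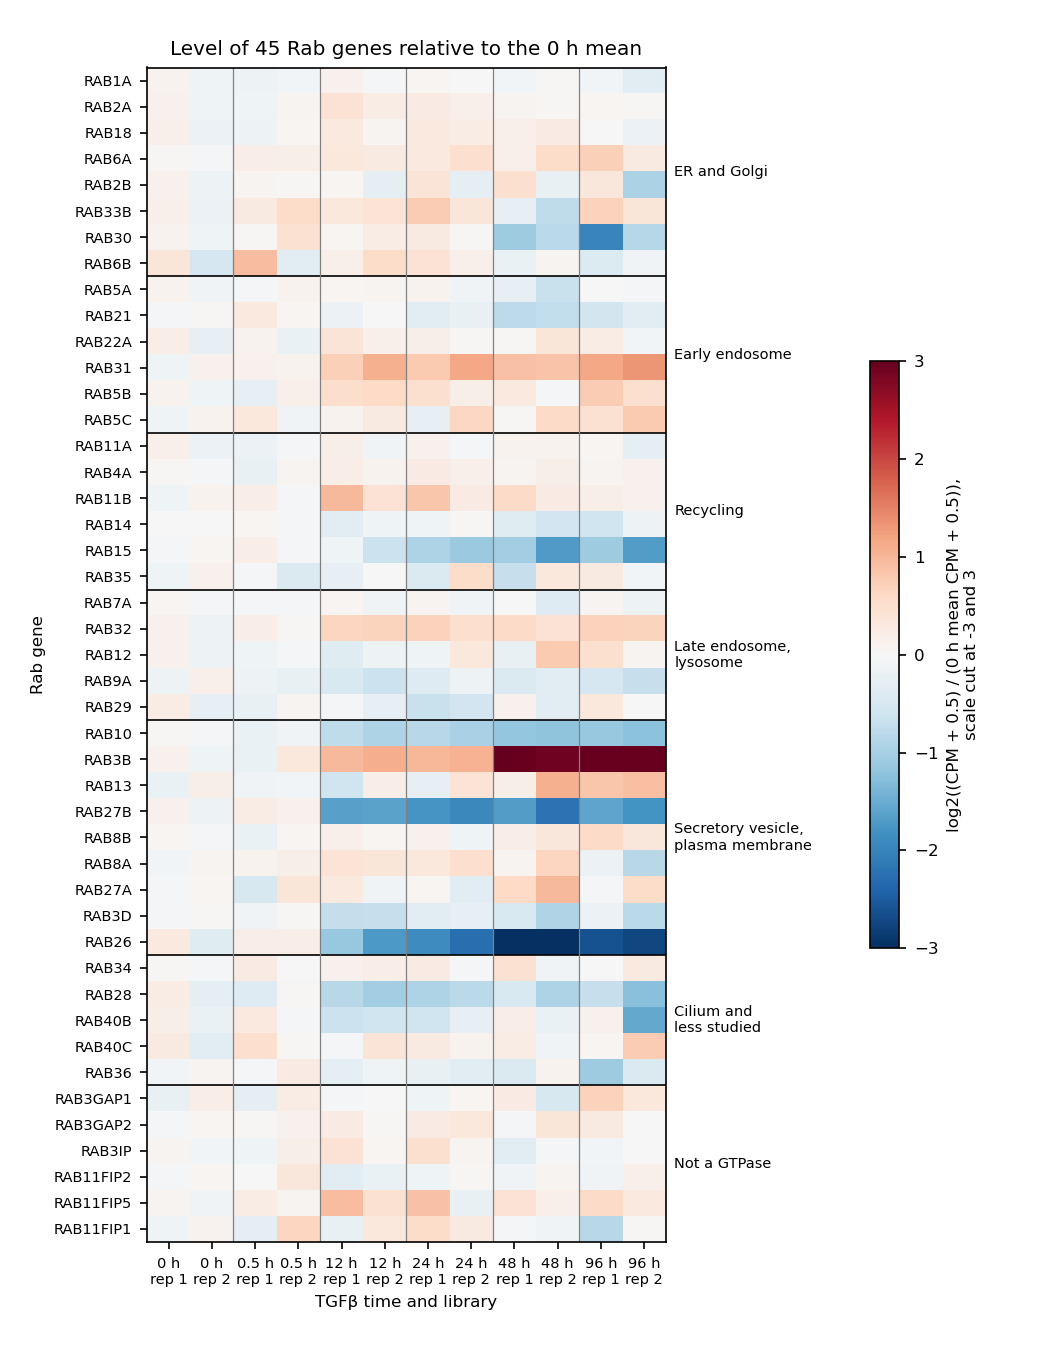
Level of each of the 45 Rab genes (rows, grouped by compartment) in each of the 12 libraries (columns), as log2 of CPM over the 0 h mean with 0.5 added to both; the colour scale stops at -3 and 3. RAB3B stands out in red from 48 h, RAB10, RAB27B, RAB15 and RAB26 in blue from 12 or 24 h, and most ER, Golgi and recycling rows stay pale.

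Against 0 h, 13 of the 45 genes were called at one or more times (edgeR quasi-likelihood test, Benjamini-Hochberg adjusted p under 0.05 over 10465 genes), 5 higher and 8 lower, and 0 in both directions. The other 32 were called in none of the 7 comparisons. At 0.5 h, 0 of 45 were called with edgeR and 0 with DESeq2, and 0 had an unadjusted p under 0.05, while 0.44% of all tested genes were called. At 12 h, 4 were higher and 4 lower, 17.8% of the 45, beside 14.3% of all tested genes (8.46% higher, 5.83% lower). At 24 h, 3 were higher and 5 lower, beside 13.2% of all genes (7.62% higher, 5.56% lower). At 48 h the counts were again 3 and 5, beside 18.5% of all genes (10% higher, 8.48% lower). At 96 h, 4 were higher and 7 lower, 24.4%, beside 23.7% of all genes (12.5% higher, 11.1% lower). These shares are near the background. The median log2 change of the 45 was 0.09 at 12 h and 0.04 at 96 h, beside -0.02 and 0.02 over all tested genes.

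By compartment the calls fell as follows. Among the 9 Rabs of secretory vesicles and the plasma membrane, 4 were called at each of 12, 24, 48 and 96 h: RAB3B higher, and RAB10, RAB27B and RAB26 lower. This was 44.4% at each time, beside 14.3%, 13.2%, 18.5% and 23.7% of all tested genes. The 4 genes were the same each time, so these shares are not separate observations, and the lists were chosen with earlier results known. Of the 144 UMIs of RAB26, the 0 h libraries held 33 and 19 and the 0.5 h libraries 28 and 33. The 96 h libraries held the fewest cells, so a minimum on summed UMIs is met more easily by genes high early. RAB26 is also 1 of the 8 genes called lower. Among the 8 ER and Golgi Rabs, 0 were called at 12, 24 and 48 h (1 unadjusted p under 0.05 at each of these times), and only RAB30 at 96 h. Of the 6 partners named for a Rab, 0 were called in any comparison, and DESeq2 called 0 of them against 0 h; the lowest adjusted p against 0 h was 0.0878, for RAB11FIP5 at 12 h (log2 change 0.72 ± 0.28). Sets of 8 and 6 genes are too small to set 0 calls apart from the shares of all tested genes. The difference between compartments was not tested.

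RAB3B (ENSG00000169213, GRCh38 chromosome 1, 51907956 to 51990700, minus strand, 5 exons) showed the largest rise of the 45. It belongs to the RAB3 branch, which docks secretory vesicles at the plasma membrane. Its level was 17.8 and 14.7 CPM in the 0 h libraries, 14.1 and 20.3 after 0.5 h, 32.3 and 34.9 after 12 h, 33.0 and 34.0 after 24 h, 138.8 and 125.1 after 48 h, and 255.4 and 299.6 after 96 h. Both libraries of every time from 12 h lay above both 0 h libraries. The course had a step by 12 h, a plateau to 24 h and a second climb from 24 h on. The log2 change against 0 h was 1.04 ± 0.21 (SE) after 12 h (adjusted p = 0.000778), 1.04 ± 0.21 after 24 h (adjusted p = 0.000895), 3.02 ± 0.20 after 48 h (adjusted p = 2.97e-11) and 4.09 ± 0.20 after 96 h (adjusted p = 1.14e-13), the last a 17.0-fold rise. RAB3B was also the only one of the 45 called from 24 h to 48 h or from 48 h to 96 h. From 24 h to 48 h it rose by a log2 of 1.98 ± 0.18 (adjusted p = 1.01e-07), when 5.24% of all genes were called and 2.61% were higher. From 48 h to 96 h it rose by 1.07 ± 0.17 (adjusted p = 0.000885), when 1.21% of all genes were called and 0.803% were higher. The last step was 0.94 with an adjusted p of 0.0528 without 96 h replicate 2. With stricter limits on wells, which left 6 to 58 cells per library, RAB3B was called against 0 h at 48 h (log2 change 4.02) and 96 h (4.85), and the 12 h and 24 h changes were 2.09 and 2.10 with adjusted p of 0.0584 and 0.11. Thinned library sums gave an adjusted p of 0.128 at 24 h.

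The 250 bases before the RefSeq transcription start are printed here for 5 of the 6 genes called at each of 12, 24, 48 and 96 h, to set the rises beside the falls; RAB26, the sixth, has no entry (build GRCh38.p14, read 5' to 3' on the gene's strand). Capitals mark letters searched on both strands: the SMAD box CAGACA, the AP-1 motif TGANTCA, and the E-box CACCTG that SNAI and ZEB factors bind. The searched letters do not overlap each other. The windows are chr1:51990701-51990950 (minus strand) for RAB3B, chr18:9708051-9708300 (plus) for RAB31, chr6:146543583-146543832 (plus) for RAB32, chr2:26033834-26034083 (plus) for RAB10 and chr18:54717607-54717856 (plus) for RAB27B.
RAB3B: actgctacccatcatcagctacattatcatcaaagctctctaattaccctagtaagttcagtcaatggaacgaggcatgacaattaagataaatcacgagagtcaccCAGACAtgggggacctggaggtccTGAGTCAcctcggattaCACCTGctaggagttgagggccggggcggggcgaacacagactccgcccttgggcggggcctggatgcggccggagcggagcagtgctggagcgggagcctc
RAB31: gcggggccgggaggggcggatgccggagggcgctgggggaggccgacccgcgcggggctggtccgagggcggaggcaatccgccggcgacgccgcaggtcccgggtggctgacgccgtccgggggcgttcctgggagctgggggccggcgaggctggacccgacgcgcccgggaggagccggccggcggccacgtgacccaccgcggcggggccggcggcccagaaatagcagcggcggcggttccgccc
RAB32: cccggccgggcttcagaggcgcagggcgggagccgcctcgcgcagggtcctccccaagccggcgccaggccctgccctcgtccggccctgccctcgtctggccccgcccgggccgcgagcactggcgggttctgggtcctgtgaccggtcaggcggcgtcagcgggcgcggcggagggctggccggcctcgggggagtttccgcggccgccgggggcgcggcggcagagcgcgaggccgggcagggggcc
RAB10: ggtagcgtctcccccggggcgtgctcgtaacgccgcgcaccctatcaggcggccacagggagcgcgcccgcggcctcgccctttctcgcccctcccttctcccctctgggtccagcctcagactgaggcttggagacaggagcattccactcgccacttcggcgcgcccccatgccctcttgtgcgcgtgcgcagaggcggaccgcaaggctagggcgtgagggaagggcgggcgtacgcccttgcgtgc
RAB27B: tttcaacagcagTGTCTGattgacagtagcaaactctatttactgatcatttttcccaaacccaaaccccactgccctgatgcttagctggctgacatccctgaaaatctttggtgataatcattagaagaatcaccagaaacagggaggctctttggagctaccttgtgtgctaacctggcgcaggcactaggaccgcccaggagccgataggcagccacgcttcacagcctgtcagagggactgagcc
The RAB3B window held all 3 sets of letters, which begin 143, 119 and 102 bases before the start. RAB27B held 1 SMAD box on the opposite strand, 238 bases before the start. RAB31, RAB32 and RAB10 held none. The background was 27305 RefSeq windows of this length, the first listed for each gene symbol, without a limit to protein-coding genes. Of these, 13.6% held the SMAD box letters, 6.60% the AP-1 letters and 17.5% the E-box letters. Of the 37 Rab genes found in that table, 4, 2 and 8 did. The palindromic SMAD element GTCTAGAC occurred in 0.176% of all windows and in 0 of the 37. The Rab windows had a median GC content of 65.6%, beside 58% for all windows. A match is a description of these letters and not of binding.

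Within single cells RAB3B rose in the share of cells with a UMI and in UMIs per cell. These are not separate observations, since at such low counts the share follows largely from the mean. After every cell was thinned to the same number of UMIs, a little under the lowest library median of 14137 (1684 of 1871 cells were deep enough), the share of cells with at least 1 RAB3B UMI was 12.4% ± 1.38 at 0 h, 14.1% ± 6.73 after 0.5 h, 24.8% ± 3.26 after 12 h, 29.2% ± 1.58 after 24 h, 68.5% ± 5.02 after 48 h and 83.2% ± 1.25 after 96 h (SD, n = 2 libraries). A Poisson count of the same mean would give 15.3% and 16.9% in the 0 h libraries and 93.7% and 96.5% at 96 h. The observed shares of these libraries were 11.4% and 13.4%, and 82.4% and 84.1%. Without thinning the shares at 0 h and 96 h were 20.5% and 91.8%. The median cell held 0 RAB3B UMIs up to 24 h, 1 after 48 h and 2 after 96 h, and the highest cell held 4 at 0 h and 11 after 96 h. At 96 h, 4.39% of 114 cells had 10 or more UMIs and 16.7% had none. RAB10 offers a gene of similar mean at that time: 3.35 UMIs per thinned cell beside 3.06 for RAB3B. A RAB10 UMI was found in 96.6% ± 1.98 of cells, and the tenth of cells with the most RAB10 held 21.2% and 23.8% of its UMIs in the 96 h libraries, beside 33.3% and 31.6% for RAB3B. RAB3B was spread less evenly over the cells of those libraries than RAB10. Free RNA in the wells is one source of single UMIs. Wells with under 1000 genes, which were not kept, held RAB3B at 35.9 CPM at 0 h and 285 CPM at 96 h, at a median of 1107 and 638 UMIs per well. A RAB3B UMI was seen in 3.54% and 18.1% of those wells. The kept cells held 16.2 CPM at 0 h and 278 CPM at 96 h. The scales differ, since CPM of the wells not kept is per total UMIs of all genes, without TMM. The 0 h value of those wells rests on 14 RAB3B UMIs. Between these times the poor wells held 29.4 CPM after 12 h, 33.7 after 24 h and 121 after 48 h, beside 33.6, 33.5 and 132 in the kept cells. Each well received 1 sorted cell, and whether the RNA of the poor wells was free or came from that cell was not tested. The part of free RNA in the shares of cells was not tested either.

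**Figure D2:**
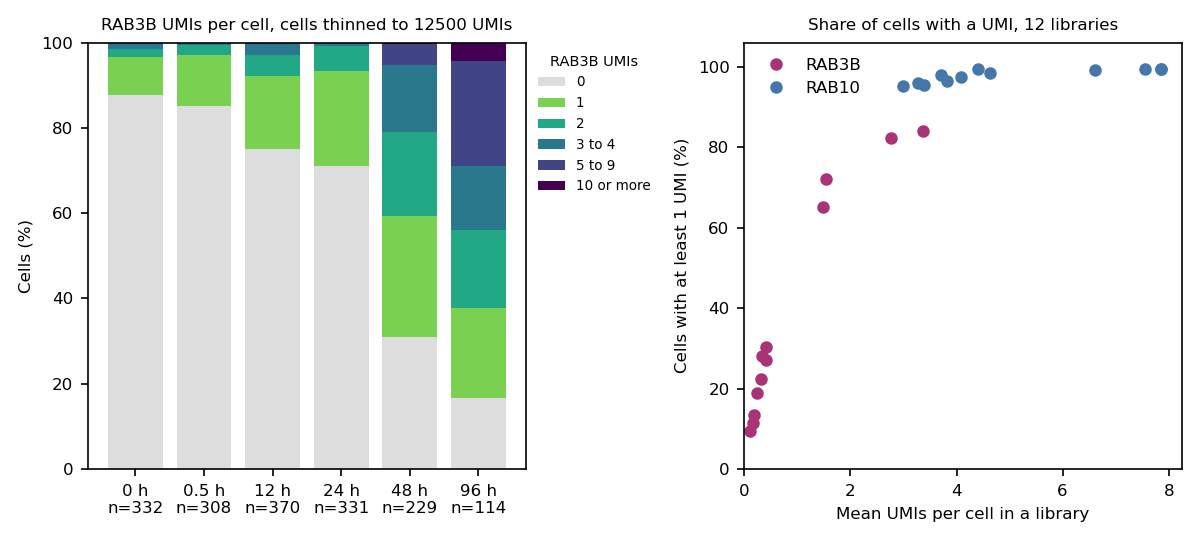
Left, percent of cells with each number of RAB3B UMIs at each time (n, cells thinned to 1 depth, both libraries together). Right, percent of cells with at least 1 UMI against the mean UMIs per cell, 1 point per library, for RAB3B and RAB10; at 96 h RAB3B reaches 82.4% and 84.1% of cells and RAB10, at a similar mean, 98.0% and 95.2%.

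RAB10 (ENSG00000084733, chromosome 2, 26034084 to 26137454, plus strand, 6 exons) was the abundant counterpart that fell. It delivers exocytic vesicles, including those with glucose transporters, to the plasma membrane. Its levels were 722 and 678 CPM at 0 h, 606 and 647 after 0.5 h, 416 and 371 after 12 h, 396 and 358 after 24 h, 315 and 304 after 48 h, and 318 and 296 after 96 h. All libraries from 12 h on lay below those of 0 h and 0.5 h. RAB10 fell by a log2 of 0.83 ± 0.14 at 12 h (adjusted p = 0.00014) and by 1.19 ± 0.15 at 96 h (adjusted p = 8.75e-07), a 2.28-fold lower level. From 48 h to 96 h the change was -0.01 ± 0.15. The ratio of RAB10 to RAB1A UMIs, which needs no scaling between libraries, went from 1.43 and 1.58 at 0 h to 0.718 and 0.789 at 96 h.

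RAB27B, which docks multivesicular bodies and secretory granules at the plasma membrane, had completed its fall by 12 h. The gene lies on chromosome 18 (54717860 to 54895516, plus strand), and a lncRNA on the other strand overlaps its last kb. It stood at 59.6 and 48.5 CPM at 0 h and 63.3 and 59.6 after 0.5 h, then at 17.0 and 17.6 after 12 h, 15.6 and 13.7 after 24 h, 16.7 and 11.3 after 48 h, and 17.9 and 15.3 after 96 h. No later library came near the 0 h level. The log2 change was -1.64 ± 0.20 at 12 h (adjusted p = 2.17e-06) and -1.71 ± 0.24 at 96 h (adjusted p = 8.61e-06). Its paralog RAB27A, which serves the same route, was not called, with a log2 change of 0.11 ± 0.29 at 12 h and 0.31 ± 0.33 at 96 h. The ratio of RAB27B to RAB27A UMIs was 4.64 and 3.43 in the 0 h libraries and 1.35 and 0.767 at 96 h.

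RAB26, which acts on secretory granules and synaptic vesicles (chromosome 16, 2140803 to 2154165, plus strand), was scarce at 0 h and almost lost later. The 0 h libraries held 33 and 19 UMIs (9.02 and 5.49 CPM) and the 0.5 h libraries 28 and 33. Later libraries held 12 and 7 after 12 h, 7 and 3 after 24 h, 0 and 0 after 48 h, and 1 and 1 after 96 h. The 48 h level was at least 12.0-fold lower than at 0 h, taking 3 counts over the group as the floor. At 96 h it was 10.2 times lower, with an exact 95% interval of 2.69 to 86.5 that covers counting error only. The changes at 12 h (log2 -1.56 ± 0.45, adjusted p = 0.019) and 24 h (-2.34 ± 0.50, adjusted p = 0.00193) were less firm. Without 0 h replicate 1 the adjusted p was 0.246 and 0.0579, and without 12 h replicate 2 the first was 0.21. DESeq2 did not call the first. At 48 h and 96 h the call was kept under every alternative that gave a value.

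RAB13, a plasma membrane Rab that binds junctional and actin-linked effectors, split by replicate number. Its level was 57.7 and 74.6 CPM at 0 h, 61.5 and 62.6 after 0.5 h, 43.5 and 75.8 after 12 h, 55.6 and 87.6 after 24 h, 74.4 and 139.5 after 48 h, and 117.2 and 124.2 after 96 h. Replicate 2 was the higher library at every time. The replicate numbers differ in the set of cell barcodes used, and the part of this in the gap was not tested. The log2 change at 96 h was 0.87 ± 0.34 and missed the threshold (adjusted p = 0.088), with both 96 h libraries above both at 0 h. DESeq2 gave an adjusted p of 0.0261 and the fit on the 4 libraries compared 9.5e-05. The edgeR fit with DESeq2 size factors gave 0.0782. With the replicate number as a block the 96 h change was 0.88 (adjusted p = 0.000706), and the 48 h change was 0.65 with an adjusted p of 0.00916, beside 0.196 without the block. With no filter on low counts the 96 h adjusted p was 0.000285. Leaving out 1 library at 12 h, 24 h or 48 h gave adjusted p of 0.00936 to 0.0486, and leaving out 1 at 0 h, 0.5 h or 96 h gave 0.129 to 0.346. RAB13 shares its last kb with another annotated gene on the same strand. RAB8A, RAB8B, RAB27A and RAB3D, the other 4 genes of this compartment, were not called against 0 h. RAB27A showed 0.79 ± 0.29 at 48 h (adjusted p = 0.0568). RAB8A and RAB8B, which serve traffic from the Golgi to the plasma membrane and the cilium, ranged from 8.64 to 24.7 and from 22.8 to 39.6 CPM over the 12 libraries. RAB3D, a paralog of RAB3B, stood at 6.01 and 6.36 CPM at 0 h and 5.43 and 3.32 at 96 h, so the RAB3B to RAB3D ratio of UMIs went from 2.95 and 2.32 to 47.0 and 90.2, the last pair on 7 and 5 RAB3D UMIs.

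**Figure D3:**
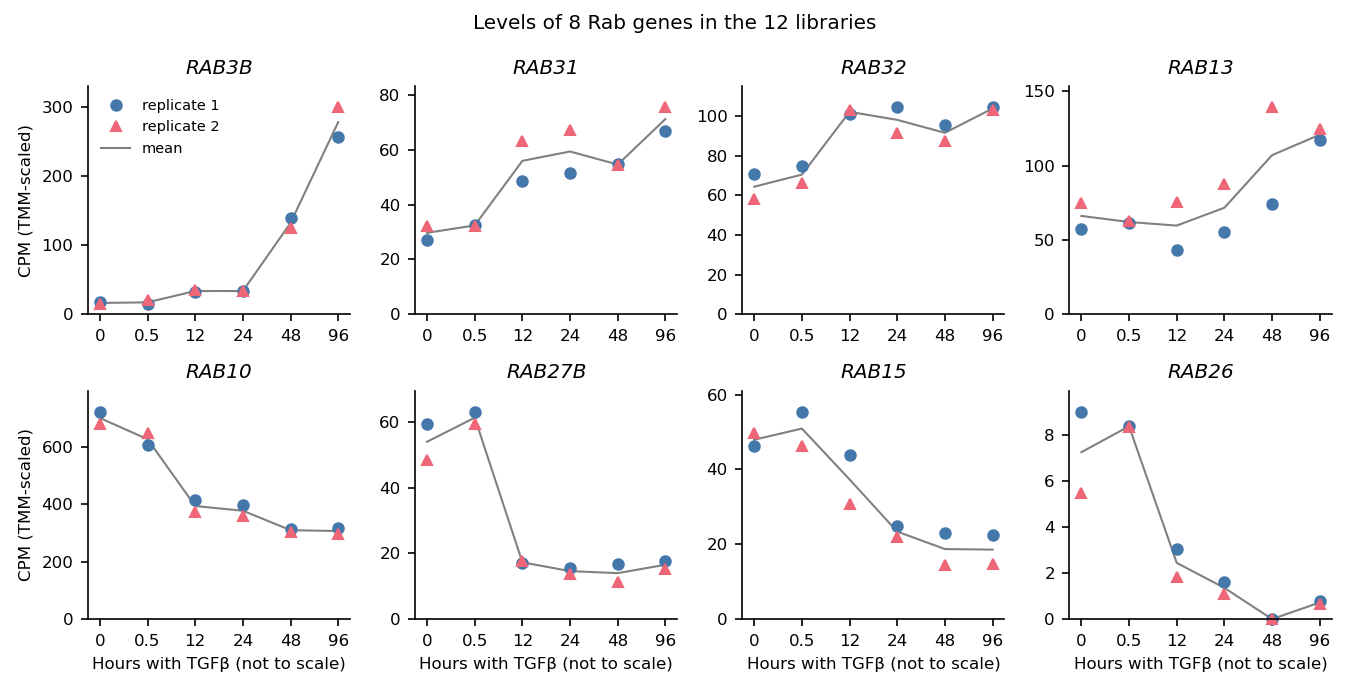
Level (CPM, y axis from 0) of 8 Rab genes in each library against hours with TGFβ, circles for replicate 1, triangles for replicate 2 and a line through the means. RAB3B climbs in steps to 255.4 and 299.6 CPM, RAB10 and RAB27B drop by 12 h, and RAB13 shows the gap between replicate numbers.

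Among the 6 early endosome Rabs, RAB31 was called higher at each of 12, 24, 48 and 96 h. RAB31 (chromosome 18, 9708275 to 9862551, plus strand) carries cargo between the trans-Golgi network and endosomes and takes part in EGFR traffic. Its level was 27.1 and 32.4 CPM at 0 h, 32.7 and 32.2 after 0.5 h, 48.8 and 63.2 after 12 h, 51.5 and 67.3 after 24 h, 54.7 and 54.6 after 48 h, and 66.8 and 75.7 after 96 h. Both libraries of each time from 12 h exceeded every library of 0 h and 0.5 h. The log2 change was 0.91 ± 0.19 after 12 h (adjusted p = 0.00166), 0.99 ± 0.20 after 24 h, 0.88 ± 0.20 after 48 h and 1.27 ± 0.21 after 96 h (adjusted p = 5.24e-05). The 48 h call had an adjusted p of 0.054 without 0 h replicate 1. The closest relative of RAB31, RAB22A, changed by 0.08 ± 0.21 at 96 h and was not called. RAB5B, one of 3 RAB5 genes of early endosome fusion, was higher at 96 h by 0.63 ± 0.21 (adjusted p = 0.0337). That call was lost without either 0 h library or either 96 h library (adjusted p 0.063 to 0.243). RAB5A and RAB5C were not called, with -0.03 ± 0.18 and 0.64 ± 0.28 at 96 h. RAB21, which moves integrins through early endosomes, was lower after 48 h, with 79.8 and 83.2 CPM at 0 h and 47.4 and 48.9 after 48 h (log2 change -0.76 ± 0.17, adjusted p = 0.0022). At 96 h it stood at 55.1 and 63.8 CPM and was not called (-0.45 ± 0.18, adjusted p = 0.0686). A lncRNA lies opposite its 3' end.

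Of the 6 recycling Rabs, RAB15 fell and RAB11B rose at 1 time. RAB15 slows the passage of receptors through early and recycling endosomes (chromosome 14, 64945814 to 64973226, minus strand), and CHURC1-FNTB on the other strand overlaps its last kb. It stood at 46.2 and 49.7 CPM at 0 h, 55.5 and 46.4 after 0.5 h, 44 and 30.7 after 12 h, 25 and 21.8 after 24 h, 23.0 and 14.4 after 48 h, and 22.5 and 14.6 after 96 h. After 12 h, when RAB27B was called lower, the log2 change of RAB15 was -0.36 ± 0.21 and not called, and after 24 h it was -1.02 ± 0.23 (adjusted p = 0.00243), after 48 h -1.31 ± 0.24 (adjusted p = 0.000287) and after 96 h -1.38 ± 0.27 (adjusted p = 0.000478). The difference in timing between the genes was not tested. RAB11B, a recycling endosome Rab, stood at 53.3 and 63 CPM at 0 h and 113.9 and 78.7 at 12 h (log2 change 0.73 ± 0.21, adjusted p = 0.0176). Replicate 1 was the higher library at every time from 0.5 h on, and replicate 2 at 0 h. With the replicate number as a block, the adjusted p was 0.003 at 12 h and 0.0212 at 24 h, where it was 0.0626 without the block. The call was lost without either 0 h library or without 12 h replicate 1 (adjusted p 0.0526 to 0.331), and at 96 h the change was 0.15 ± 0.23. RAB11A, RAB4A, RAB14 and RAB35 were not called. RAB11A, the most abundant of them, ranged from 269 to 370 CPM over the 12 libraries, with a log2 change of -0.11 ± 0.16 at 96 h. RAB4A of fast recycling ranged from 62.4 to 86.3 CPM, RAB14 from 48.1 to 77.05 and RAB35 from 13.3 to 32.2.

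Among the 5 Rabs of late endosomes, lysosomes and autophagy, RAB32 was higher from 12 h on. RAB32 serves lysosome-related organelles and mitochondria (chromosome 6, 146543833 to 146554953, plus strand). Its level was 70.8 and 58.1 CPM at 0 h, 74.6 and 66.4 after 0.5 h, 101 and 103 after 12 h, 105 and 91.7 after 24 h, 95.8 and 87.5 after 48 h, and 105 and 103 after 96 h. The libraries from 12 h on all lay above those of 0 h and 0.5 h. The log2 change was 0.66 ± 0.16 after 12 h (adjusted p = 0.00485), 0.61 ± 0.16 after 24 h, 0.51 ± 0.16 after 48 h (adjusted p = 0.0298) and 0.69 ± 0.17 after 96 h (adjusted p = 0.00399). Without 0 h replicate 2 it was 0.52, 0.46, 0.34 and 0.52, and was called at none of these times (adjusted p 0.0748 to 0.267). Other single libraries that ended the call were 24 h replicate 1 at 24 h (adjusted p = 0.137), and 48 h replicate 1 (0.165) and replicate 2 (0.0566) at 48 h. RAB9A, which returns cargo from late endosomes to the Golgi, was lower after 96 h, with 39.6 and 49.1 CPM at 0 h and 31.1 and 27.2 after 96 h (log2 change -0.61 ± 0.22, adjusted p = 0.0436). Its adjusted p was 0.051 to 0.242 without 0 h replicate 2, 12 h replicate 2 or either 96 h library, and the direction turned with stricter limits on wells. RAB7A, the main Rab of late endosomes, ranged from 164 to 227 CPM and changed by -0.03 ± 0.16 at 96 h. RAB12 ranged from 28.0 to 62.8 CPM and RAB29, which works with the kinase LRRK2, from 16.5 to 33.4.

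Of the 8 ER and Golgi Rabs, 7 were not called against 0 h at any time. RAB1A, which drives ER-to-Golgi transport, stood at 504 and 429 CPM at 0 h and 443 and 375 at 96 h (log2 change -0.19 ± 0.15, adjusted p = 0.392). RAB2A stood at 281 and 236 CPM at 0 h and 269 and 266 at 96 h. RAB6A, which moves cargo within and from the Golgi, was 42.6 and 40.5 CPM at 0 h and 68.3 and 50.5 at 96 h (0.51 ± 0.20, adjusted p = 0.0721). RAB18, which sits on ER and lipid droplets, ranged from 109 to 151 CPM, RAB2B from 11.3 to 31.7, RAB33B from 3.09 to 9.85 and RAB6B from 2.89 to 8.69. RAB30, a Golgi Rab whose last kb overlaps a lncRNA on the same strand, held 30 and 24 UMIs at 0 h and 2 and 6 at 96 h, with a log2 change of -1.40 ± 0.50 (adjusted p = 0.0458). The RAB30 call was lost without any one of 7 libraries, namely 24 h replicate 1 and both libraries of 0 h, 12 h and 96 h (adjusted p 0.0503 to 0.304). Of the 5 ciliary and less studied Rabs, only RAB28 was called. RAB28, which is found at the base of cilia, stood at 27.1 and 19.1 CPM at 0 h, 17.4 and 23.6 after 0.5 h, 12.7 and 11 after 12 h, 11.9 and 12.9 after 24 h, 16.7 and 11.8 after 48 h, and 14 and 9.30 after 96 h. Every library from 12 h on lay below both 0 h libraries. Its log2 change was -0.96 ± 0.26 after 12 h (adjusted p = 0.013), -0.90 ± 0.26 after 24 h (adjusted p = 0.0225) and -1.004 ± 0.32 after 96 h (adjusted p = 0.0234), and -0.66 ± 0.27 after 48 h was not called. These 3 calls were not made by DESeq2 and were lost without 0 h replicate 1 (adjusted p = 0.222, 0.31 and 0.2), among other single libraries: both 12 h libraries for the 12 h call (0.0505 and 0.133), both 24 h libraries for the 24 h call (0.156 and 0.0803) and 96 h replicate 2 for the 96 h call (0.256). RAB34, the most abundant of this group and known for a part in ciliogenesis, ranged from 157 to 232 CPM. RAB40B ranged from 3.32 to 13.2 CPM, RAB40C from 3.47 to 7.97 and RAB36 from 1.55 to 4.56. Of the partners, RAB3GAP1 and RAB3GAP2, which form the complex that acts on RAB3 and RAB18, ranged from 29.3 to 66.8 and from 36.3 to 48.9 CPM. RAB3IP, a GEF for RAB8, ranged from 22.0 to 38.9 CPM, and the RAB11-family interacting proteins RAB11FIP1, RAB11FIP2 and RAB11FIP5 from 2.33 to 7.35, 20.6 to 32.4 and 13.7 to 31.0.

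**Figure D4:**
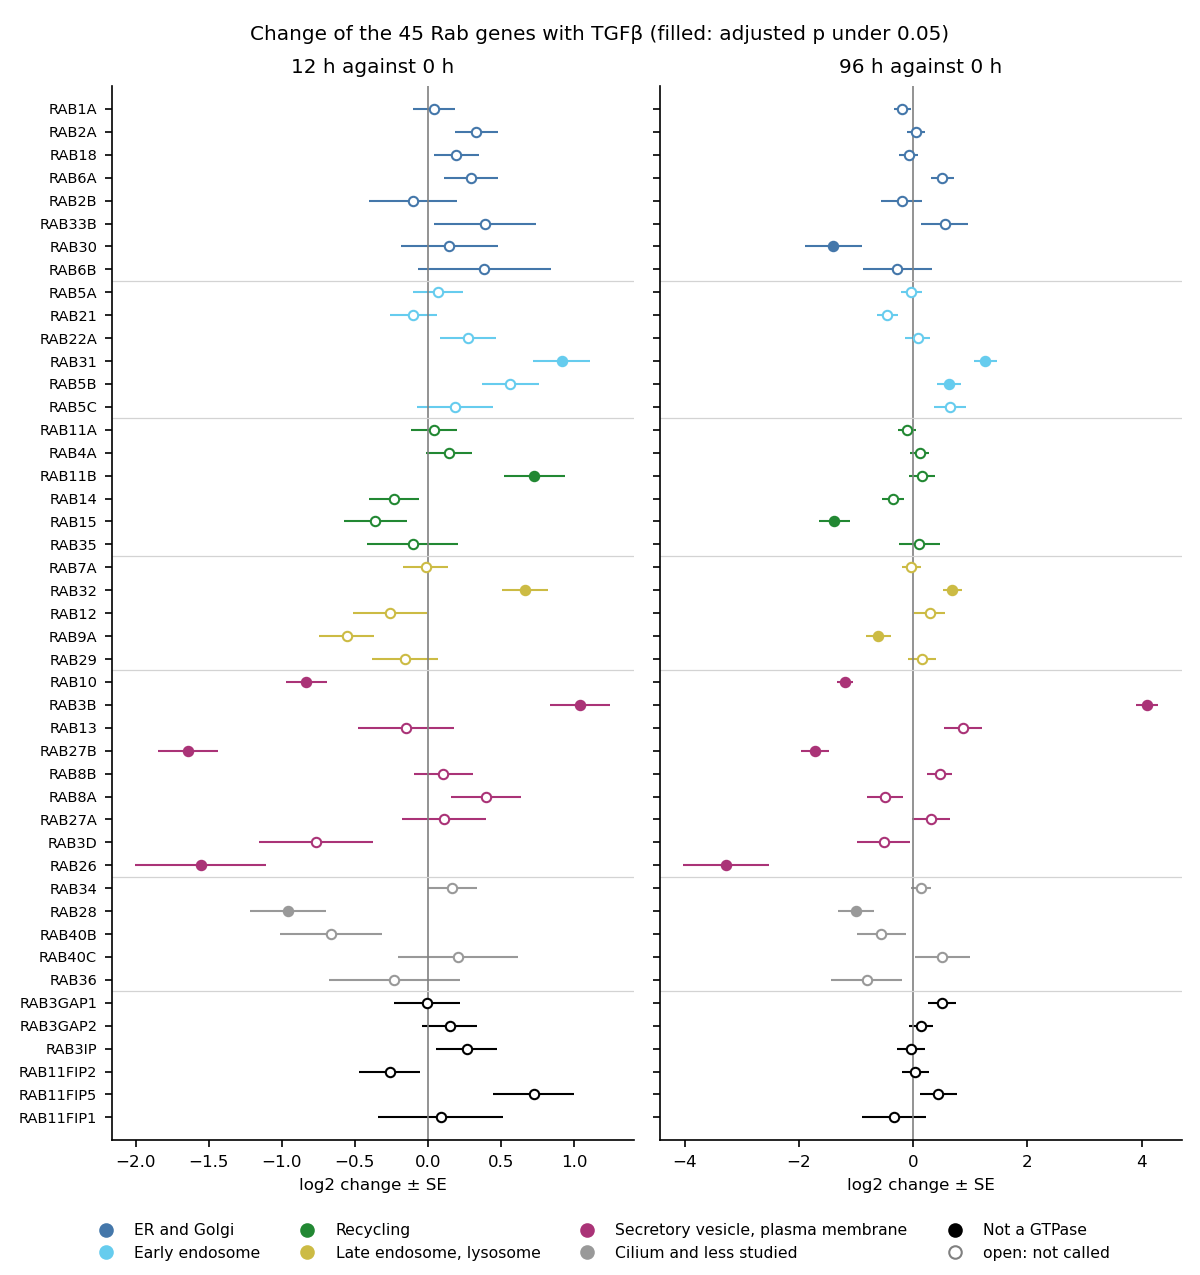
Log2 change ± SE of the 45 Rab genes at 12 h and at 96 h against 0 h, coloured by compartment, filled where the adjusted p was under 0.05; the panels have separate x axes. RAB3B moves from 1.04 to 4.09 while RAB27B and RAB10 lie to the left in both panels; the fitted RAB26 value at 96 h rests on 2 UMIs.

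The genes that load, unload and read Rabs were counted from a list of 159, of which 123 were tested. At 0.5 h 0 were called with edgeR and 0 with DESeq2, and 2 had an unadjusted p under 0.05. At 12 h, 8 were higher and 3 lower, after 24 h 9 and 3, after 48 h 12 and 10, and after 96 h 14 and 9. As shares these were 8.94%, 9.76%, 17.9% and 18.7% of the list as a whole, each below the share of all genes at the same time. The median log2 change of the list at 96 h was 0.12.

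Calls among the 44 effectors tested numbered 6, 6, 13 and 11 at 12, 24, 48 and 96 h. Their shares of 13.6%, 13.6%, 29.5% and 25% stood beside 14.3%, 13.2%, 18.5% and 23.7% of all tested genes. OPTN, an autophagy receptor that binds RAB8, rose from 43.4 and 47.1 CPM at 0 h to 114 and 104 after 12 h and 127 and 113 after 96 h (log2 change 1.27 ± 0.18 and 1.40 ± 0.19, adjusted p = 1.87e-05 and 5.19e-06). MICAL2, an actin-oxidising enzyme of a family that binds Rabs, was higher by 1.46 ± 0.24 at 12 h (adjusted p = 0.000198) and 1.38 ± 0.25 at 96 h (adjusted p = 0.000404). At 12 h APPL2, a RAB5 effector, was higher by 0.92 ± 0.20 (adjusted p = 0.00225), and the adjusted p was 0.0991 without 12 h replicate 1. EEA1, the RAB5 tether of early endosomes, went from 29.0 and 35.3 CPM at 0 h to 76.9 and 87.0 at 96 h (1.35 ± 0.21, adjusted p = 2.02e-05). MYO5C and MYO5B, class V myosin motors that carry vesicles for RAB11, RAB10 and RAB8, were lower at 96 h. MYO5C fell from 24.9 and 18.5 CPM to 2.33 and 2.66 (-3.10 ± 0.51, adjusted p = 6.67e-05), and MYO5B from 15.0 and 15.0 CPM to 4.66 and 3.99 (-1.80 ± 0.39, adjusted p = 0.00136). EHBP1, which links Rabs to actin, was lower by 0.82 ± 0.18 on the log2 scale at 96 h (adjusted p = 0.00162), and its adjusted p was 0.0641 without 96 h replicate 2. UNC13D, a RAB27 effector in granule release, was named after its values were seen: it was at 7.10 and 7.51 CPM at 0 h, 16.8 and 15.2 after 12 h, and 2.33 and 0.664 after 96 h. Its change was 1.13 ± 0.35 at 12 h and -2.32 ± 0.69 at 96 h. The first call was lost without either library of 0 h or 12 h (adjusted p 0.0776 to 0.168) and the second without 96 h replicate 2 (adjusted p = 0.219).

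Among the proteins that insert Rabs into membranes or extract them, 15 were tested. Of the 15, 1 (6.67%), 3 (20%), 5 (33.3%) and 4 (26.7%) were called at 12, 24, 48 and 96 h. All tested genes gave 14.3%, 13.2%, 18.5% and 23.7%. CHML, an escort protein for Rab prenylation, was lower from 12 h on. It stood at 57.1 and 72.2 CPM at 0 h, 28.0 and 32.0 after 12 h, 33.2 and 44.7 after 24 h, 23.7 and 37.1 after 48 h, and 31.1 and 25.9 after 96 h. At 12 h and 96 h it was called (log2 change -1.11 ± 0.22 and -1.19 ± 0.25, adjusted p = 0.00066 and 0.000879), as at 48 h (-1.12 ± 0.23, adjusted p = 0.000787). The 24 h change was smaller (-0.75 ± 0.21, adjusted p = 0.0191), and that call was lost without 0 h replicate 2 or 24 h replicate 1 (adjusted p = 0.175 and 0.246). With stricter limits on wells the gene was called at none of these times. RABAC1, which takes Rabs from their GDI carrier, went from 25.1 and 30.1 CPM at 0 h to 69.1 and 112 at 96 h (1.73 ± 0.28, adjusted p = 0.000129), and YIPF5 of the Golgi was higher by 0.87 ± 0.19 (adjusted p = 0.00128). ARL6IP5 was lower by 0.50 ± 0.16 at 96 h (adjusted p = 0.021), a call lost without 0 h replicate 1 or either 96 h library (adjusted p 0.0569 to 0.175).

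Among 29 GAPs tested, 2 (6.9%), 2 (6.9%), 4 (13.8%) and 6 (20.7%) were called at 12, 24, 48 and 96 h. Each share was below that of all tested genes at the same time. TBC1D8 was lower and TBC1D7 higher at both 12 h and 96 h. TBC1D8 went from 20.2 and 20.2 CPM at 0 h to 7.63 and 8.39 after 12 h and 7.76 and 5.98 after 96 h (-1.33 ± 0.27 and -1.56 ± 0.35, adjusted p = 0.00105 and 0.00154). TBC1D7, also a subunit of the TSC complex, was higher by 0.62 ± 0.18 at 12 h (adjusted p = 0.0191) and 0.96 ± 0.19 at 96 h (adjusted p = 0.000469). Its 12 h call was lost without either 0 h library or 12 h replicate 2 (adjusted p 0.0534 to 0.159). RABGAP1L was higher by 1.31 ± 0.30 and TBC1D17 by 1.54 ± 0.36 at 96 h (adjusted p = 0.00204 and 0.00271). TBC1D4, a GAP for RAB10, was lower by 1.19 ± 0.43 at 96 h (adjusted p = 0.0483), a call lost without either library of 0 h or 12 h or without 96 h replicate 2 (adjusted p 0.0542 to 0.517). Of the 35 GEFs, 2 were called after 12 h, 1 after 24 h, 0 after 48 h (4 with an unadjusted p under 0.05) and 2 after 96 h. These shares were 5.71%, 2.86%, 0% and 5.71%, beside 14.3%, 13.2%, 18.5% and 23.7% of all tested genes. TRAPPC10 was higher by 1.01 ± 0.31 and TRAPPC13 lower by 0.85 ± 0.26 at 12 h (adjusted p = 0.0272 and 0.0309), RIN2, a GEF for RAB5, higher by 0.59 ± 0.16 and DENND3, a GEF for RAB12, lower by 0.93 ± 0.33 at 96 h (adjusted p = 0.00763 and 0.0449). Each of these 4 calls was lost without 2 or more single libraries. The adjusted p reached 0.258 for TRAPPC10 without 0 h replicate 1, 0.187 for TRAPPC13 without 12 h replicate 1, 0.133 for RIN2 without 96 h replicate 1 and 0.209 for DENND3 without 96 h replicate 2. The rates of the groups were not compared by a test.

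**Figure D5:**
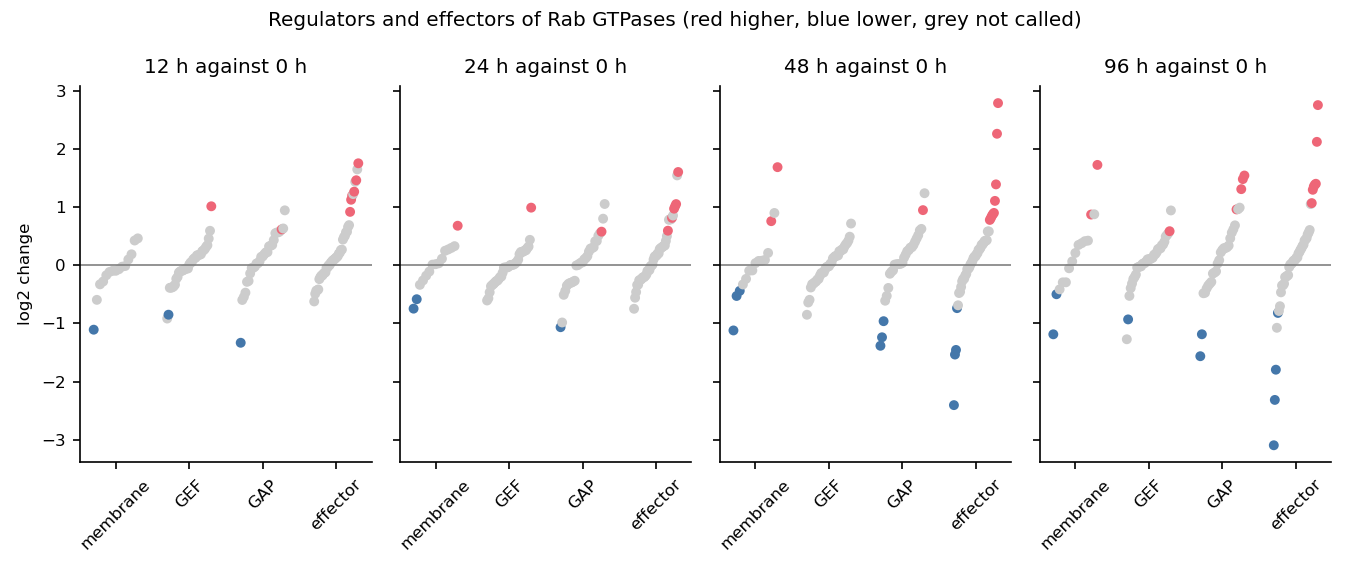
Log2 change against 0 h of the 123 tested regulators and effectors of Rabs at 12, 24, 48 and 96 h, 1 point per gene ordered by change within each group (membrane insertion and extraction, GEF, GAP, effector); red is called higher, blue called lower, grey not called. At 96 h effectors hold both the highest and the lowest points, and of the 35 GEFs 2 are coloured.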

How the data were processed

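Wells of 12 CEL-Seq2 libraries were analysed from the table of counts deposited by the authors, which holds whole-number UMI counts per gene and well, not normalized. Per the labels, the authors trimmed with Trim Galore 0.6.7, aligned to GRCh38 using HISAT2 2.2.1, assigned reads through featureCounts 2.0.1 and collapsed them by UMI-tools. The study's single-cell methods name later versions of Trim Galore and featureCounts. Annotation release, strand and handling of multi-mapped reads: not given in the sources used here. Overlapping genes and near-identical paralogs are therefore uncertain.

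Wells with 100 to 40000 UMIs, 2000 to 7000 genes and at most 35% mitochondrial counts were kept. Protein-coding counts were added up within each library and tested with edgeR 4.0.16 in R 4.3.3 (TMM, filterByExpr, robust quasi-likelihood fit, 12 libraries, 6 residual degrees of freedom, all 10465 tested genes adjusted together). Each SE follows from the change and its F statistic. Count intervals cover counting error only. No doublet caller was run on these single-cell sorts. Gene positions are from GENCODE 44, promoters from RefSeq. The test was checked on simulated data.

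The genes, lists and motifs were chosen with earlier results of these data known. Every Rab gene called was named, and all 12 values were given for Rab genes called at 2 or more times against 0 h. Of the Rab machinery list, up to 3 genes per group and direction were named at 12 h and 96 h. Other called genes of that list are not described, such as MICALL2 at 96 h (log2 change 2.75). RAB13 was followed because its libraries differ. Alternatives were another scaling, no filter, DESeq2 1.42.0, the replicate number as a block, stricter wells, thinned sums, totals over all genes, only the libraries compared, and each library left out.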

Additional observations from a re-analysis of the deposited data

How the results depend on the processing

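Of 37 calls among the Rab genes, 16 were kept under every alternative that gave a value, 15 were lost without at least 1 single library and 6 only under stricter limits on wells or thinned sums. The 16 were RAB10 and RAB27B at 12, 24, 48 and 96 h, RAB3B at 48 h and 96 h against 0 h and from 24 h to 48 h, RAB31 at 12 h and 96 h, RAB26 at 48 h and 96 h, and RAB15 at 48 h. RAB26 gave a value in 19 alternatives, beside 20 for the other genes of this group. Stricter limits on wells, which leave 6 to 58 cells per library and 4871 tested genes, gave 3, 2, 5 and 4 called Rab genes at 12, 24, 48 and 96 h against 0 h and 0 from 48 h to 96 h, and turned RAB9A at 96 h to 0.16 (adjusted p = 0.908). Thinned sums gave 4 at 24 h. From 24 h to 48 h, 3 were called with no filter and with the replicate block, RAB27A and RAB26 beside RAB3B. With each library left out, the counts ranged from 5 to 10 at 12 h (5 without 0 h replicate 1), 6 to 9 at 24 h, 7 to 10 at 48 h, 7 to 12 at 96 h (7 without 0 h replicate 2 or 96 h replicate 2), 1 to 2 from 24 h to 48 h (2 without 48 h replicate 1) and 0 to 1 from 48 h to 96 h (0 without 96 h replicate 2). At 0.5 h all alternatives gave 0.

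The alternatives on the machinery list were added after the data had been seen. Its counts at 12, 24, 48 and 96 h were 4, 3, 2 and 5 with stricter limits; DESeq2 gave 7, 7 and 14 at the first 3 of these times, thinned sums 7 at 12 h and 5 at 24 h, and the replicate block 17 at 12 h. Left-out libraries gave 5 to 13 at 12 h, 6 to 12 at 24 h, 9 to 23 at 48 h and 16 to 23 at 96 h. Counts more than 1.5 times lower came without 12 h replicate 1 (5), 12 h replicate 2 (6) or 0 h replicate 1 (7) at 12 h, without 0 h replicate 1 (6) or 24 h replicate 1 (7) at 24 h, and without 0 h replicate 1 (9) or 48 h replicate 2 (11) at 48 h.

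Libraries of the same replicate number, which also share a barcode set, had deviations from the time means that correlated at -0.0952 to 0.292 over genes. Every pair of times with 0.5 h was negative and every other pair positive. The main fit did not take the numbers as pairs, and these values do not exclude a shared part. Over all genes the replicate block called more in every comparison, at 48 h 2369 beside 1935. Beside the counts above, it moved no count of Rab genes by over 1.5 times. The 96 h libraries rest on 54 and 64 cells, and a change that missed the threshold there may still be present. The percent of cells with a UMI moved with the depth to which cells were thinned for 22 of 24 values. Over all genes at 12 h, 1495 were called, and 1053 by DESeq2, 1897 with the replicate block and 300 with stricter limits.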
